A study of Mus musculus with 4 samples.

Results

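The genes described here are Trp63, which encodes the transcription factor p63, and 8 genes for proteins that mark or shape the surface of epithelial progenitors: Ly6a, Cd44, Prom1, Cd24a, Ngfr, Cdh3, Cdh1 and Cav1. They were taken as a list of names, and every array probe whose transcript accession belongs to one of them was used. That gave 15 probes for the 9 genes, out of 41174 probes on the array, of which 24375 carried one of 17016 gene symbols. Trp63, Prom1, Ngfr and Cav1 each had 2 probes, Cd44 had 3, and the other genes had 1 probe each. All 15 probes were well above background in sphere RNA on all 4 arrays, so none was lost to the filter on dim probes.

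DAPT-treated spheres (2 arrays) were set against vehicle-treated spheres (2 arrays). Both groups started from prostate basal cells that had been sorted by flow cytometry from adult FVB mice, and the cells were then grown in the prostate sphere assay, a culture in which epithelial progenitors form small balls. DAPT, used at 5 µM, blocks γ-secretase, the protease complex that frees the active intracellular part of Notch receptors. The vehicle was DMSO, and medium with either agent was renewed every 24 h. The study asked how Notch signalling controls the growth and differentiation of basal cells. On each array sphere RNA was labelled red and a pooled universal mouse reference RNA was labelled green. The labels do not say how many animals were pooled, how long the spheres grew, which surface proteins defined the sort, or whether the 2 arrays of a treatment were grown as separate cultures, and the p-values therefore cover the spread among these 4 arrays alone, part of which may be technical.

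p63 is the factor that basal cells of stratified and pseudostratified epithelia need in order to form and persist, and in the prostate its short ΔN form marks the basal layer. Several surface proteins have been used to enrich prostate progenitors by sorting, among them Sca-1 (the product of Ly6a), CD44 and CD133 (the product of Prom1). E-cadherin and P-cadherin, the products of Cdh1 and Cdh3, hold epithelial cells together, and P-cadherin in the prostate is found mainly on basal cells. Caveolin 1, the product of Cav1, builds caveolae, small pits of the plasma membrane.

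The median red signal of a spot was 1.83 to 2.84 times its local background and the median green signal 11.5 to 18.5 times, and no probe spot was saturated. The scanner software marked 49.6% and 50.9% of probe spots on the DAPT arrays as non-uniform or as outliers, against 11.5% and 29.2% on the vehicle arrays. Among spots of the 15 probes these shares were 76.2% and 66.7% with DAPT, against 21.4% and 45.2% with vehicle. All 4 arrays lay on 1 slide and were scanned once. The DAPT arrays held positions 2 and 1 of the slide and the vehicle arrays positions 4 and 3, so position and treatment cannot be told apart. Log ratios of all kept probes correlated at 0.942 between the DAPT arrays, 0.918 between the vehicle arrays and 0.833 to 0.872 across groups. Each change is given as log2(DAPT/vehicle) ± SE, fitted with limma, and p-values were adjusted over all 27284 probes kept. At an adjusted p under 0.05, 6.90% of these probes were called, 865 higher (3.17%) and 1018 lower (3.73%) with DAPT. Of the called probes 45.9% were thus higher, against 69.7% with median centring in place of loess and 29.3% with scale normalization between arrays, and median centring moved the median change of all probes to 0.10 against -0.04.

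Of the 15 probes 2 were higher with DAPT at the threshold and 0 were lower in limma, with 8 higher and 1 lower at an unadjusted p under 0.05. Of all 27284 probes kept, 6473 had an unadjusted p under 0.05 in either direction. The 2 calls are 13.3% of the probes, against 6.90% of all probes (3.17% higher and 3.73% lower). They were 1 of the 2 Cav1 probes and 1 of the 2 Trp63 probes. Of the probes, 12 had positive and 3 had negative changes, and the negative ones belonged to Cd24a and Ngfr. In 12 probes both DAPT arrays lay on one side of both vehicle arrays, which is 80% of them, against 54.3% of all probes kept. The members were chosen with earlier results of these data known, and probes of the same gene were counted separately. Their shares are therefore no independent evidence.

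**Figure D1:**
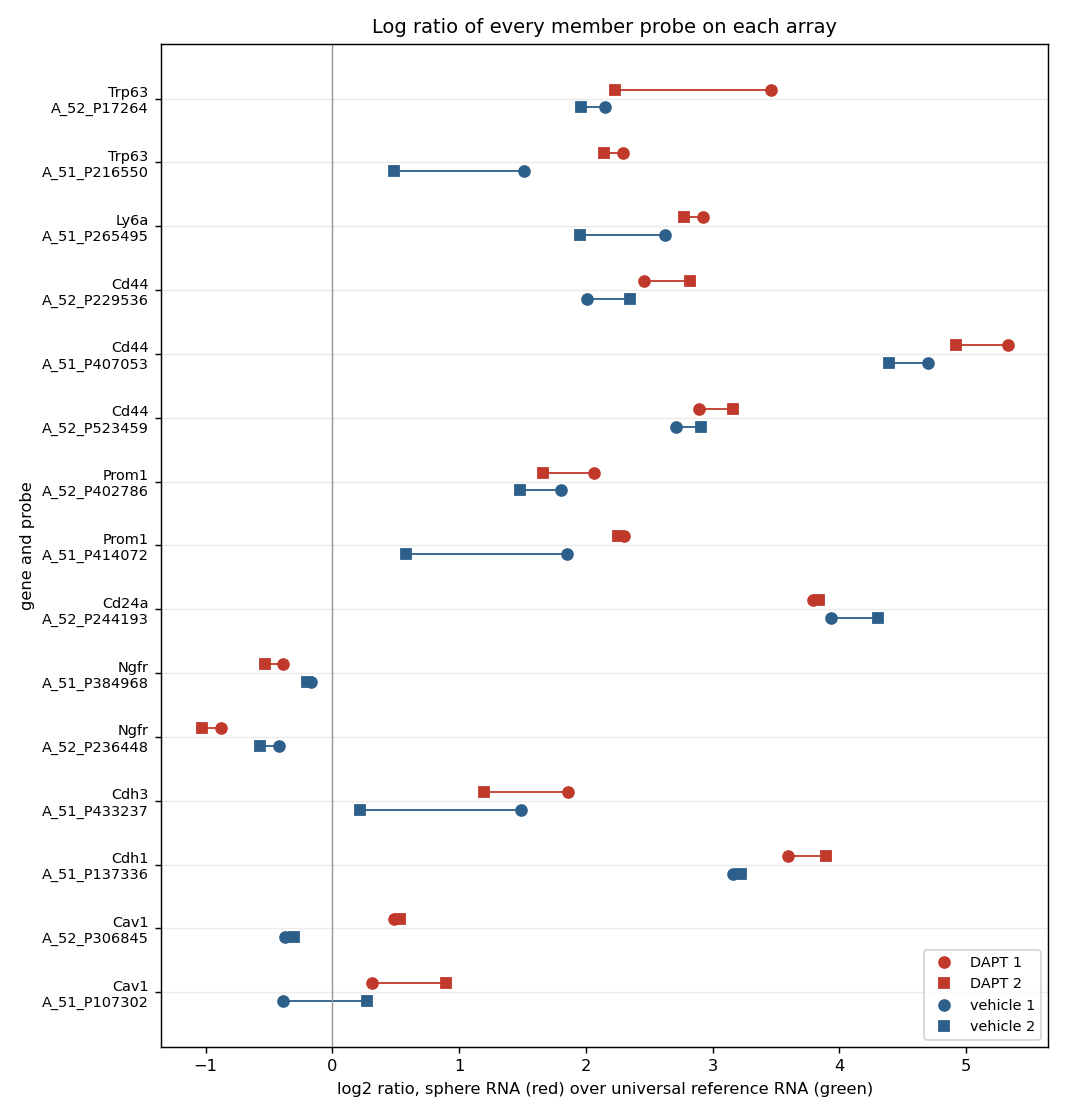
The log2 ratio of sphere RNA (red dye) over reference RNA (green dye) is plotted for each of the 15 probes, with 1 point per array, DAPT in red above vehicle in blue; circles are replicate 1 and squares replicate 2. Cav1 probe A_52_P306845 shows tight pairs at 0.49 and 0.53 with DAPT and at -0.37 and -0.30 with vehicle, whereas the vehicle 2 square stands apart at 0.49 for Trp63 probe A_51_P216550 and at 0.58 for Prom1 probe A_51_P414072.

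**Figure D2:**
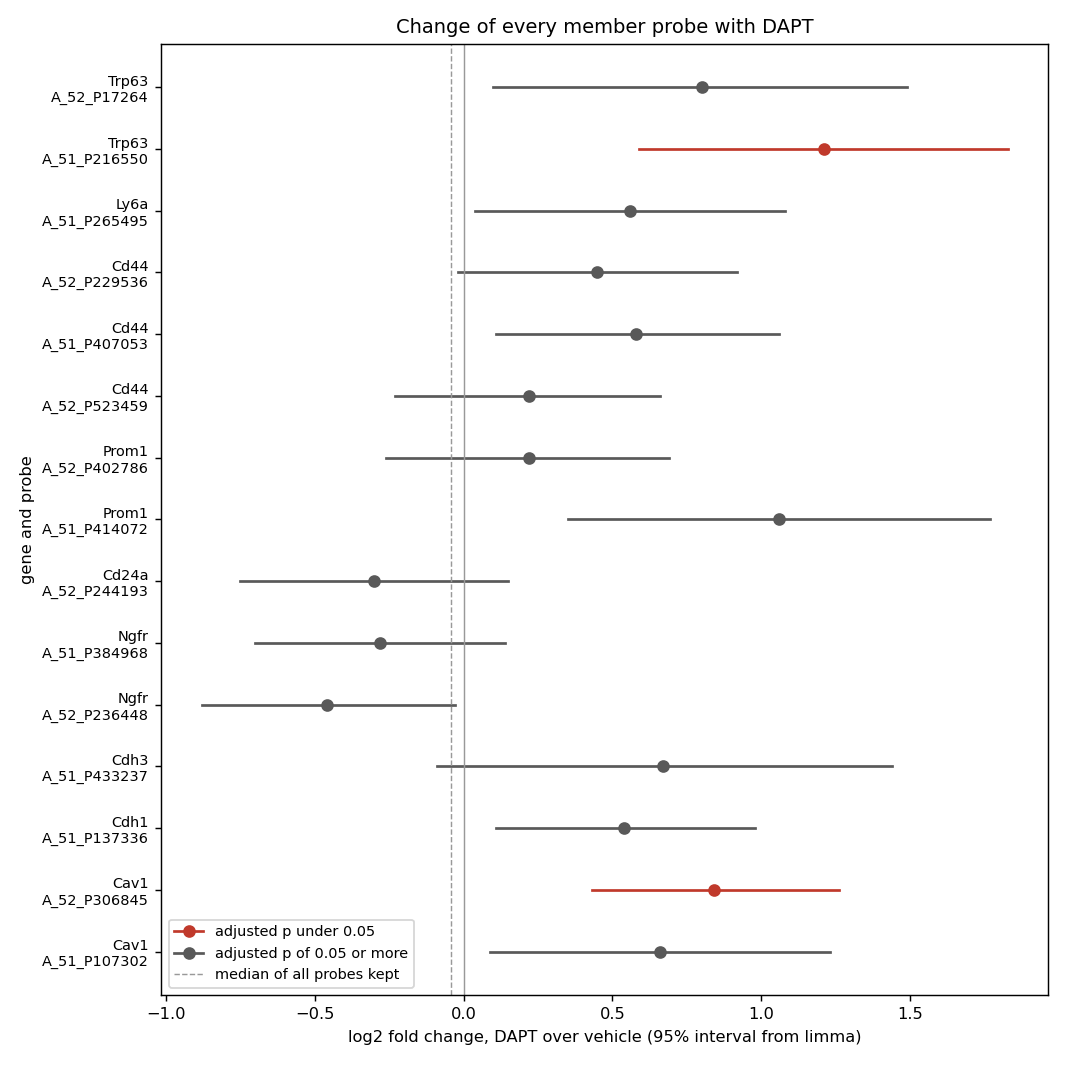
The log2 fold change of DAPT over vehicle is given for each probe with its 95% interval from limma (2 arrays per group), in red where the adjusted p is under 0.05; the dashed line is the median of all probes kept. Only Trp63 probe A_51_P216550 at 1.21 and Cav1 probe A_52_P306845 at 0.84 are red.

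Trp63 was measured by probes A_52_P17264 and A_51_P216550. Whether either one separates the TA and ΔN forms of p63 was not analysed here. Probe A_52_P17264 had log2 ratios of 3.46 and 2.23 in DAPT spheres, against 2.15 and 1.96 in vehicle spheres. The DAPT arrays were above both vehicle arrays, but DAPT 2 by a small margin. The change of 0.80 ± 0.32 did not pass (adjusted p = 0.153, 95% interval from 0.10 to 1.49), and it was 0.18 without DAPT replicate 1 and 1.41 without DAPT replicate 2, where it passed (adjusted p = 0.0013).

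The second Trp63 probe, A_51_P216550, had log2 ratios of 2.29 and 2.14 in DAPT spheres, against 1.51 and 0.49 in vehicle spheres. Both DAPT arrays were close together, and vehicle 2 was far below vehicle 1. This probe passed at 1.21 ± 0.28 (2.31-fold, adjusted p = 0.0262). Its red spot signal hardly differed, at 177.5 and 159 scanner units on the DAPT arrays, against 140.5 and 177 on the vehicle arrays. The green spot of the reference RNA, which is the same material on every array, read 41.5 and 34 on the DAPT arrays, against 66 and 415 on the vehicle arrays. Green was well above background on vehicle 2 alone, and that spot was also the only one of this probe that the scanner software marked as non-uniform or as an outlier. Without vehicle replicate 2 the change was 0.70 and did not pass (adjusted p = 0.0858), and the same held with marked spots left out (0.70, adjusted p = 0.127). With loess and then Aquantile normalization, the red channel had a mean log2 signal of 7.64 with DAPT and 8.18 with vehicle, a difference of -0.54. This red value is rebuilt from the ratio and the mean of both channels, so the marked green spot enters it. On vehicle 2 it was 8.66 with a red spot signal of 177, against 7.67 with 177.5 on DAPT 1. Red quantile-normalized without green differed by -0.47.

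For the first Trp63 probe the red channel gave 8.53 with DAPT and 8.24 with vehicle on the same log2 scale, a difference of 0.30, while green differed by -0.50. Its reference spots were not well above background on any array, so the ratios of this probe are set against a reference near the floor. Trp63 RNA was thus well above background in red in both groups. Between groups the normalized red signal differed by 0.30 in one probe and by -0.54 in the other, where the marked green spot enters. Red quantile-normalized without green differed by -0.08 and -0.47.

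Ly6a encodes Sca-1, a small protein anchored to the outer membrane by a lipid. Its probe had red spot signals of 29230 and 20650 in DAPT spheres, against 14520 and 7534 in vehicle spheres, and log2 ratios of 2.92 and 2.77, against 2.62 and 1.95. Both DAPT arrays were above both vehicle arrays, and vehicle 2 was the lowest. Reference signals were alike, at 12.22 and 12.17 on the normalized log2 scale, so the difference between groups lay in the red channel. The change of 0.56 ± 0.24 did not pass (adjusted p = 0.177, 95% interval from 0.04 to 1.08). It was 0.22 without vehicle replicate 2 and 0.02 with scale normalization between arrays (adjusted p = 0.979), and it was 0.90 without vehicle replicate 1, where it passed (adjusted p = 0.0181).

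CD44 is a receptor for hyaluronan, a sugar polymer of the matrix, and it had 3 probes. Probe A_51_P407053 had log2 ratios of 5.33 and 4.92 with DAPT, against 4.70 and 4.39 with vehicle. Probe A_52_P229536 had 2.46 and 2.82 with DAPT, against 2.01 and 2.35 with vehicle. In both, the groups did not overlap, and neither change passed, at 0.58 ± 0.22 (adjusted p = 0.13) and 0.45 ± 0.22 (adjusted p = 0.227). The third probe, A_52_P523459, is spotted 10 times on each array and gave 2.89 and 3.16 with DAPT, against 2.71 and 2.91 with vehicle, so here the groups overlapped. Its change was 0.22 ± 0.20 (95% interval from -0.23 to 0.66). All 3 changes were positive, and all 3 turned negative with scale normalization between arrays, at -0.46 for A_51_P407053, -0.07 for A_52_P229536 and -0.41 for A_52_P523459.

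Prom1 encodes prominin 1, a protein that crosses the membrane 5 times and sits on its protrusions. Its probes were dim, with red spot signals from 135 to 167 with DAPT and 126 to 158.5 with vehicle for A_52_P402786. For A_51_P414072 these were 190.5 and 187 with DAPT, against 139 and 90 with vehicle. The second of these probes had its lowest value on vehicle 2, where the local red background was 64.5. Its change was 1.06 ± 0.32 and did not pass (adjusted p = 0.0715), with 0.42 without vehicle replicate 2 and 1.70 without vehicle replicate 1 (adjusted p = 1.66e-05). The first probe had a change of 0.22 ± 0.22 (adjusted p = 0.592), but with the scanner software's processed signals it was 1.88 and passed (adjusted p = 0.011). Reference signals of A_51_P414072 were well above background on no array, and those of A_52_P402786 only on vehicle 2.

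CD24, the product of Cd24a, is a heavily glycosylated, lipid-anchored surface protein. Its probe had log2 ratios of 3.79 and 3.84 in DAPT spheres, against 3.93 and 4.30 in vehicle spheres. The DAPT arrays agreed closely and lay just below both vehicle arrays. The change of -0.30 ± 0.21 did not pass (adjusted p = 0.408, 95% interval from -0.75 to 0.15). In the normalized red channel the sign was the opposite, at 13.07 with DAPT and 12.90 with vehicle, since green was also brighter with DAPT by 0.47. The sign also turned with median centring, at 0.14, whereas with scale normalization the change was -1.17 and passed (adjusted p = 0.0171).

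Ngfr encodes p75, a receptor shared by the neurotrophins, and its ratios were below 0 on all 4 arrays in both probes. The probe spotted 10 times, A_52_P236448, gave -0.88 and -1.03 with DAPT, against -0.42 and -0.57 with vehicle. A_51_P384968 gave -0.39 and -0.53 with DAPT, against -0.17 and -0.20 with vehicle. In both probes the groups did not overlap, and the DAPT arrays were lower. The changes of -0.46 ± 0.20 (adjusted p = 0.181) and -0.28 ± 0.19 (adjusted p = 0.417) did not pass. The change of A_52_P236448 was negative in all 17 alternatives that measured it, from -0.53 to -0.11, whereas that of A_51_P384968 turned positive with median centring, with processed signals and in both fits of the red channel alone, where it reached 0.15.

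Cdh3, the P-cadherin gene, had log2 ratios of 1.86 and 1.20 in DAPT spheres, against 1.49 and 0.22 in vehicle spheres. Vehicle 2 was again the lowest array, with a red spot signal of 356, against 1007 on vehicle 1 and 2530 and 1930 on the DAPT arrays. The groups overlapped and the change of 0.67 ± 0.35 did not pass (adjusted p = 0.271, 95% interval from -0.09 to 1.44). It rested on that array: the change was 0.03 without vehicle replicate 2 and 1.31 without vehicle replicate 1 (adjusted p = 0.00143).

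Cdh1, the E-cadherin gene, had log2 ratios of 3.59 and 3.89 in DAPT spheres, against 3.16 and 3.22 in vehicle spheres, each the mean of 10 spots. Single spots ranged from 3.42 to 3.88 on DAPT 1 and from 3.61 to 3.98 on DAPT 2, against 2.74 to 3.41 on vehicle 1 and 2.82 to 3.59 on vehicle 2. The 10 spots of an array share 1 labelled RNA and are no replicates of a treatment. The change of 0.54 ± 0.20 did not pass (adjusted p = 0.124, 95% interval from 0.11 to 0.98). Here the difference lay in the reference: normalized log2 green signals were 6.55 with DAPT and 7.25 with vehicle, and red signals 10.28 and 10.44. The sign turned with scale normalization (-0.20) and in the red channel (-0.16 after loess and Aquantile normalization, -0.28 quantile-normalized without green).

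**Figure D3:**
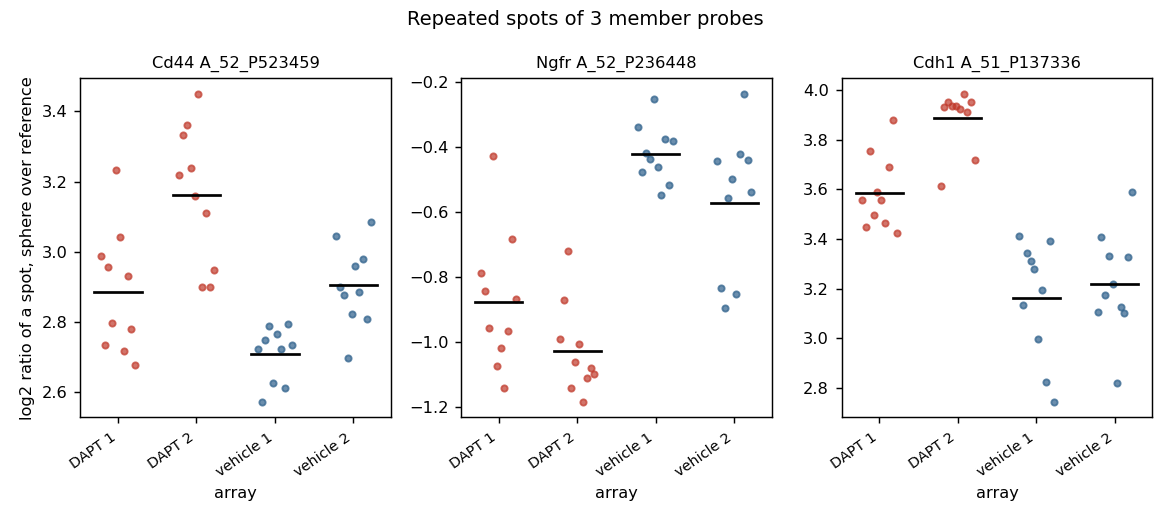
The log2 ratio of each of the 10 spots per array is plotted for the 3 probes that are spotted repeatedly, with DAPT arrays in red left of vehicle arrays in blue and a black bar at the array mean. For Cdh1 the array means are 3.59 and 3.89 with DAPT and 3.16 and 3.22 with vehicle; for Cd44 the means of DAPT 1 (2.89) and vehicle 2 (2.91) nearly coincide.

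Cav1 rose in 1 of its 2 probes. Probe A_52_P306845 had red spot signals of 2748 and 2414 in DAPT spheres, against 895 and 560 in vehicle spheres, and log2 ratios of 0.49 and 0.53, against -0.37 and -0.30. Replicates lay within 0.1 of each other and the groups were far apart by comparison. The scanner software marked the spot of this probe as non-uniform or as an outlier on all 4 arrays. The setting with marked spots left out therefore could not measure this probe. The rise was 0.84 ± 0.19 (1.79-fold, adjusted p = 0.0221, 95% interval from 0.43 to 1.26). It came from the red channel, where the normalized log2 signal was 11.70 with DAPT and 10.69 with vehicle, a difference of 1.01, while green differed by 0.16. Leaving out 1 array moved the change only between 0.81 and 0.88, but the adjusted p became 0.0527 without DAPT replicate 1 and 0.0781 without DAPT replicate 2. The change was positive in all 17 alternatives that measured it, from 0.81 to 1.28, and passed in 11 of them.

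The other Cav1 probe, A_51_P107302, had log2 ratios of 0.31 and 0.90 in DAPT spheres, against -0.39 and 0.27 in vehicle spheres. Both DAPT arrays were above both vehicle arrays, by little for DAPT 1 over vehicle 2. The change of 0.66 ± 0.26 did not pass (adjusted p = 0.153). It was 0.37 without DAPT replicate 2 and 0.33 without vehicle replicate 1, and it passed at 0.95 without DAPT replicate 1 (adjusted p = 0.044) and at 0.99 without vehicle replicate 2 (adjusted p = 0.0168). Its red spot signals were 2338 and 1732 with DAPT, against 500.5 and 373 with vehicle, the same order of groups as in the first probe. On the normalized log2 scale red differed by 1.34, and green differed the same way by 0.68, at 10.72 with DAPT and 10.04 with vehicle.

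**Figure D4:**
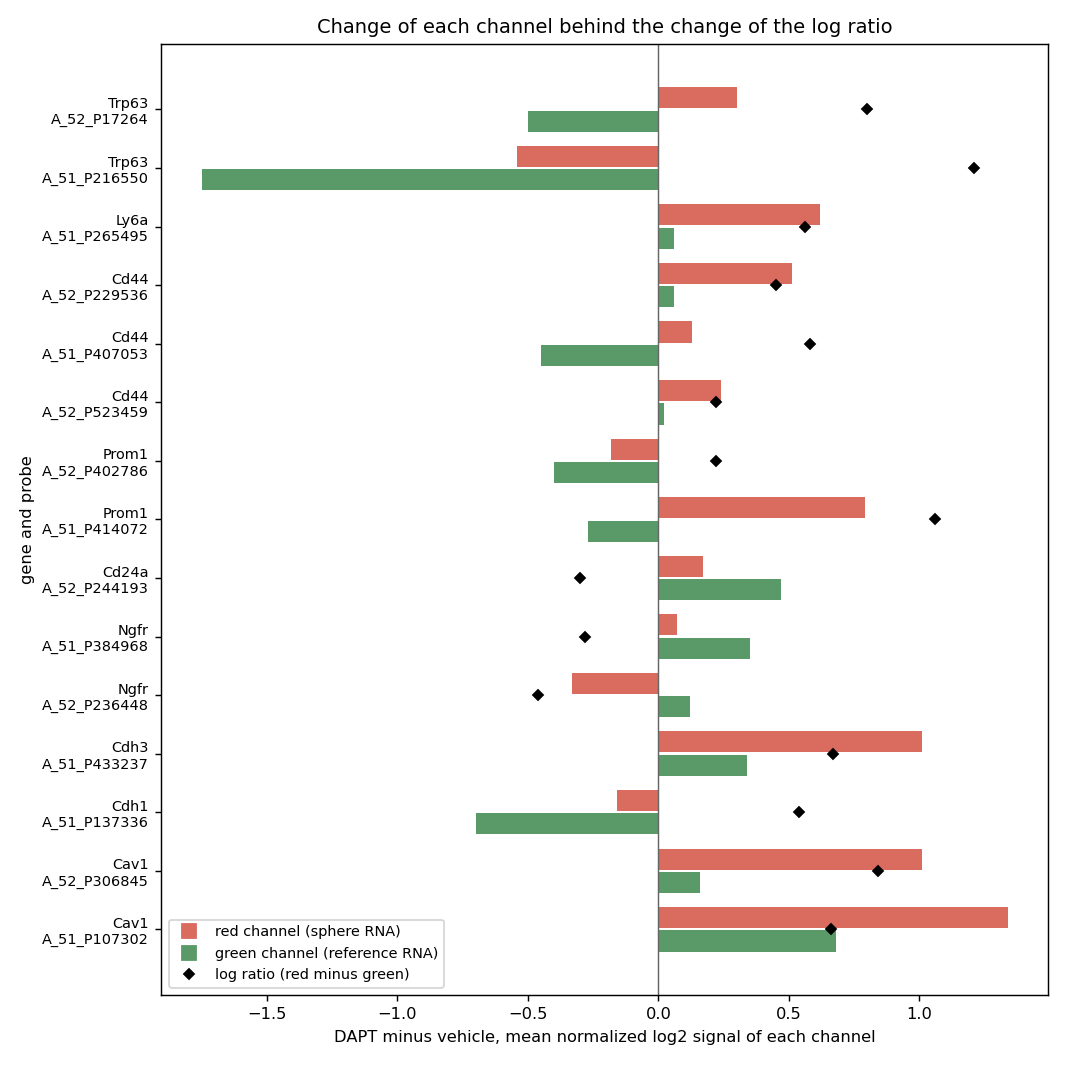
For each probe the difference DAPT minus vehicle is split into the red channel (sphere RNA, red bars) and the green channel (reference RNA, green bars), as mean normalized log2 signals of 2 arrays per group; black diamonds are the log ratio, red minus green. For Cav1 the red bars are 1.01 and 1.34 and the green bars 0.16 and 0.68, whereas for Trp63 probe A_51_P216550 the green bar is -1.75 and the red bar -0.54.

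Because Cav1 had a called rise that lay mainly in the red channel, the 250 bases before each of its RefSeq start sites are shown (GRCm38.p6, plus strand, chr6:17306085-17306334 for the upstream start and chr6:17307390-17307639 for the downstream one). Capitals mark the letters TGGGAA, the core recognised by RBPJ, the DNA-binding partner of Notch, searched on both strands.
Cav1 upstream start: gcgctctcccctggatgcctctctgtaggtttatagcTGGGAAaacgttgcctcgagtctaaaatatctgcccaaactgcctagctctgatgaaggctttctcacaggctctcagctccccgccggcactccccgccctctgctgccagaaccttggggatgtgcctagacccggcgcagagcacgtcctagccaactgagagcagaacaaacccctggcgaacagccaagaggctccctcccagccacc
Cav1 downstream start: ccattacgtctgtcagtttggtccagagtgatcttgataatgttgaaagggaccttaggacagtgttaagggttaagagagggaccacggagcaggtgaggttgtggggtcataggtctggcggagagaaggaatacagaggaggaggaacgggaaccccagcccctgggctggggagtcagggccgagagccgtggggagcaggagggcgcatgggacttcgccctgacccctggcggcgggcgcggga
The upstream window held TGGGAA once, at -213 to -208 relative to the start, and the downstream window held none. Among 32851 such windows of all genes 21.6% held it. The upstream window also had 1 E-box (CANNTG, in 66.2% of windows) and 1 GC box (GGGCGG, in 32.7%), neither overlapping TGGGAA. The downstream window had 1 E-box. Of the other 8 genes, Cd44, Prom1 and Ngfr also have windows in the table. The Cd44 window held TGGGAA 2 times, 1 of the 2 Prom1 windows held it once, and the Ngfr window had none. No window of these 4 genes held a p53-family half-site, found in 7.13% of all windows. An AP-1 site (TGANTCA, in 6.75%) stood in both Prom1 windows and in no window of Cav1, Cd44 or Ngfr. A match of letters is a description and shows no binding.

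In a bulk sample, fewer cells of a type and less RNA per cell cannot be told apart, and markers of other cells were therefore read beside these genes. Endothelial cells also carry Ly6a and Cav1. Of 8 endothelial markers 4 were kept, and Cdh5, Kdr, Tek and Tie1 were too dim for the filter, being well above background on neither pair of arrays. Limma called 0 of the 4 kept, with 0 at an unadjusted p under 0.05, and their summed red signal was 4040 and 4105 with DAPT, against 3721 and 2929 with vehicle. Leukocytes carry Cd44, Cd24a and Ly6a. All 7 leukocyte markers with a probe were kept, limma called 0 (3 at an unadjusted p under 0.05), and Ptprc, which marks all leukocytes, stood below the reference at -1.75 and -1.29 with DAPT and at -1.87 and -1.23 with vehicle. Fibroblasts also carry Cav1 and Cd44. Of 8 fibroblast markers 6 fell and none rose (0 at an unadjusted p under 0.05), from Postn at -2.39 to Col3a1 at -1.44, while Lum and Pdgfra did not pass, with a summed red signal of 8104 and 9397 with DAPT, against 19700 and 24480 with vehicle. The part of these cells in the values of Cav1 and Cd44 was not tested. Among Schwann cell and nerve markers, whose cells carry Ngfr, Gfap fell, at -0.87 ± 0.21. Basal identity itself was checked with Krt5, Krt14, Krt15, Itga6 and Itgb4, all well above background and above the reference on all arrays. Krt15 alone passed the threshold, falling by 1.08. On the normalized log2 scale its red signal differed by -3.5, and its green reference signal also differed, by -2.42. The summed red signal of the 5 basal markers was 137800 and 133100 with DAPT, against 233600 and 132500 with vehicle. Among luminal markers Krt19 fell by 1.11, while the keratin gene Krt8 (-0.36 ± 0.21) missed the threshold. Of 5 smooth muscle markers 1 fell, Myh11 (3 fell in limma at an unadjusted p under 0.05), and their median change was -0.48. Their summed red signal was 68880 and 76590 with DAPT, against 69930 and 88650 with vehicle.

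Genes that work with these 9 were read from 8 lists with 171 genes, of which 155 were kept. Of these, 16 rose and 17 fell (21.3% of those kept, against 6.64% of the brightest probes of 21464 genes or unnamed transcripts, 2.73% higher and 3.91% lower). The median change of those 21464 was -0.06. The lists were drawn up with earlier results of these data known and may hold genes chosen for having changed, so their share is no independent evidence.

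Among 39 genes of the p63 family, its regulators and its targets, 5 rose and 3 fell, with a median of 0.08. Igfbp3, a binding protein gene for insulin-like growth factors, rose most (3.18 ± 0.20), followed by the Notch ligand gene Jag2 (1.68 ± 0.27). Nectin1, a cell adhesion gene reported as a p63 target, rose by 0.99 with log2 ratios of 2.30 and 2.42 with DAPT, against 1.5 and 1.23 with vehicle. Ikbkb, a kinase gene of the NF-kB pathway, rose by 0.91 (adjusted p = 0.0531 without DAPT replicate 1). Adh7, a retinol-oxidising dehydrogenase gene, fell by 1.55, the transcription factor gene Runx1 fell by 1.16, and Hbegf, an EGF receptor ligand gene, fell by 1.13. The 2 brightest genes that did not pass were Krt5 at 0.27 ± 0.22 and Trp53 at -0.20 ± 0.21.

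Of 27 other surface markers 3 rose and 6 fell, with a median of -0.26. Procr, the protein C receptor gene, rose by 1.30 ± 0.20, with 1.65 and 1.92 in DAPT spheres, against 0.39 and 0.59 in vehicle spheres. Cd34 rose by 0.99 (not passing without DAPT replicate 2, adjusted p = 0.077, or vehicle replicate 1, 0.0866). Itgb1, the integrin β1 gene, rose by 0.98 (not passing without DAPT replicate 2, 0.12, or vehicle replicate 1, 0.13). Kit, a receptor tyrosine kinase gene used to mark a prostate stem cell fraction, fell by 1.35 ± 0.22, with -0.61 and -0.58 in DAPT spheres, against 1.03 and 0.48 in vehicle spheres. F3, which encodes tissue factor, fell by 1.27, Lgr4, an R-spondin receptor gene, fell by 1.09 (adjusted p = 0.0566 without vehicle replicate 1) and Ceacam1, an adhesion gene of luminal cells, fell by 1.06. Epcam, an epithelial adhesion gene, did not pass at -0.89 ± 0.26. It passed without DAPT replicate 1 (-1.12, adjusted p = 0.0168) and without vehicle replicate 1 (-1.25, adjusted p = 0.00167).

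Caveolae and lipid raft genes gave 2 rises in 11 and no fall (1 fell at an unadjusted p under 0.05), with a median of -0.11. Cav2, the partner of caveolin 1, rose by 0.80 ± 0.21, with 1.53 and 1.66 in DAPT spheres, against 0.62 and 0.97 in vehicle spheres. Pacsin2, a membrane-bending protein gene of caveolae, rose by 0.77 ± 0.21. Neither passed without DAPT replicate 1 (adjusted p = 0.0573 for Cav2 and 0.102 for Pacsin2), DAPT replicate 2 (0.139 and 0.115) or vehicle replicate 1 (0.113 and 0.145). The list had 0 calls without either DAPT array, and without vehicle replicate 1 its 1 call was another gene. Cavin1, which encodes the main coat protein of caveolae, did not pass at -0.11 ± 0.21, nor did Ehd2, a caveolar ATPase gene, at 0.48 ± 0.20.

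Of 23 genes of cadherins, catenins and desmosomes 1 rose and 3 fell, with a median of -0.15. Ctnnb1, the gene of β-catenin, which binds the tail of both E- and P-cadherin, fell by 1.55 ± 0.19, with 1.24 and 1.25 in DAPT spheres, against 2.87 and 2.73 in vehicle spheres. Cdh6 fell by 1.01 (not passing without DAPT replicate 2, 0.0774, or vehicle replicate 1, 0.058). Cdh16 fell by 0.76, but the red channel alone gave 0.08 after loess and Aquantile normalization, so that fall lay in the reference, and it did not pass without DAPT replicate 2, vehicle replicate 1 or vehicle replicate 2 (0.192, 0.0537 and 0.0517). Ctnnal1, a relative of α-catenin, rose by 1.65. Ctnna1 itself at 0.44 ± 0.22 and Cdh2, the N-cadherin gene, at -0.23 ± 0.20 did not pass.

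In the Ly6 family 2 of 15 genes rose and 1 fell. Ly6i and Ly6f rose by 0.95 and 0.85, and as close relatives of Ly6a their probes may not tell these genes apart. Ly6i did not pass without DAPT replicate 1 (0.131) or vehicle replicate 1 (0.0916), and Ly6f not without DAPT replicate 2 (0.138) or vehicle replicate 1 (0.0599). Without vehicle replicate 2 the family had 6 calls, and without vehicle replicate 1 it had 1. Ly6d, a keratinocyte surface antigen gene, fell by 2.14 ± 0.23, with 2.34 and 2.23 in DAPT spheres, against 4.74 and 4.11 in vehicle spheres. The family's brightest genes, Ly6e at -0.32 ± 0.22 and Ly6h at 0.05 ± 0.21, did not pass.

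Among 18 genes around CD44, 3 rose and 2 fell. Spp1, whose product osteopontin is a ligand of CD44, fell by 2.31 ± 0.21, with -2.69 and -2.33 in DAPT spheres, against -0.35 and -0.04 in vehicle spheres. Mmp9, a gelatinase gene whose product binds CD44 on the cell surface, rose by 0.95 ± 0.19. The splicing factor gene Srsf1 rose by 0.84 and Hmmr, a second hyaluronan receptor gene, by 0.79, and Adam10, a protease gene whose product sheds CD44, fell by 0.92. Srsf1 did not pass without DAPT replicate 2 (0.164) or vehicle replicate 1 (0.092), Hmmr not without DAPT replicate 1 (0.135), DAPT replicate 2 (0.0618) or vehicle replicate 1 (0.0926), and Adam10 not without DAPT replicate 2 (0.11) or vehicle replicate 2 (0.192). The list had 2 calls without DAPT replicate 2. Ezr and Msn, which encode the actin linkers ezrin and moesin, did not pass at 0.04 ± 0.20 and 0.65 ± 0.21, and Msn passed without vehicle replicate 2 (0.80, adjusted p = 0.0469).

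Of 13 kept genes for neurotrophins, their receptors and adaptors, none rose (1 at an unadjusted p under 0.05) and 1 fell, Maged1, an adaptor gene of p75, at -0.79 ± 0.20. Maged1 did not pass without DAPT replicate 1 (0.141), DAPT replicate 2 (0.0522) or vehicle replicate 2 (0.0878). Ntf3 was too dim for the same filter. Bex3 at -0.08 ± 0.25 and Kidins220 at -0.32 ± 0.19 did not pass. Of 10 relatives of prominin and partners of CD24, none rose in limma (0 at an unadjusted p under 0.05) and Tspan8, a tetraspanin gene, fell by 1.30 ± 0.20, while Hmgb1 at 0.06 ± 0.20 and Cd81 at -0.19 ± 0.24 did not pass.

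**Figure D5:**
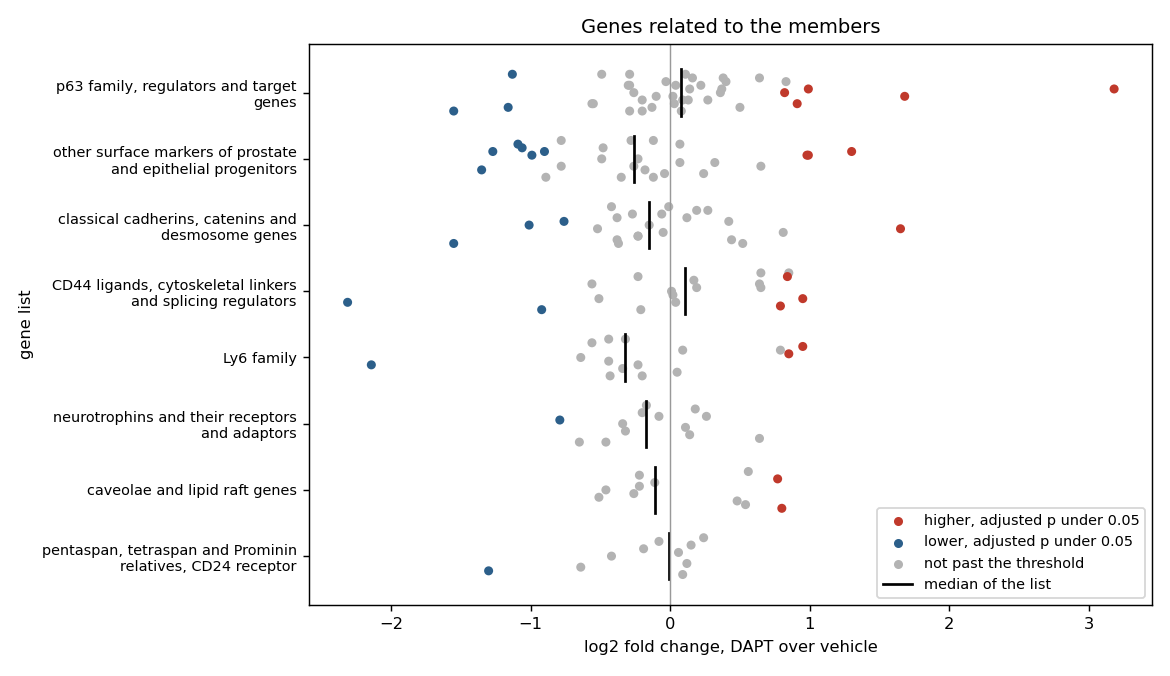
Each point is the log2 fold change of DAPT over vehicle of 1 gene in the 8 lists, red where higher and blue where lower at an adjusted p under 0.05; black bars are list medians, and vertical scatter within a list has no meaning. Every list median lies between -0.32 (Ly6 family) and 0.10 (genes around CD44), with the largest single rise for Igfbp3 at 3.18 and the largest fall for Spp1 at -2.31.

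For Trp63 and Cav1 the genes with the most similar pattern were sought among 13986 other named genes, as the distance between log2 ratios over 4 arrays after each gene's own mean was subtracted, with the brightest probe of each gene. The nearest to Trp63 were Bex1 (0.313), Fam186a (0.336) and Spryd4 (0.348). They share its high DAPT 1 value, and none of them passed. Cav1 had much closer neighbours, Med8 (0.0242), Dnaaf2 (0.037) and Nfu1 (0.0375), which rose by 0.87, 0.87 and 0.82. With 4 arrays in 2 groups, such nearness is a description of these arrays.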

How the data were processed

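Sphere RNA was hybridised to 4 arrays in 2 colours, 2 per treatment, as the sample titles group them. Per the file headers, the authors' deposited scanner files were written by Agilent Feature Extraction 10.7.3.1 and hold median intensity values of spot and local background, not normalized, and processed intensity values that the software had background-subtracted and dye-normalized. Their deposited log10 ratio of red over green served only to find the direction of the authors' deposited table of log2 values, which correlated at 0.869 to 0.902 with it and at 0.9996 to 0.9998 with the ratios computed here; its column medians were -0.02, -0.016, -0.0053 and -0.016 (DAPT 1, DAPT 2, vehicle 1, vehicle 2), and its normalization is not stated in the labels or headers. Red is sphere RNA per the labels' dyes, and no array had the dyes swapped.

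Background was corrected with normexp (offset 50) and loess was fitted within arrays, with control spots at weight 0, in limma 3.58.1 (R 4.3.3). On DAPT 2, 13 spots with a local background over 5 times the median were left out, none of them a member's. Repeat spots were averaged. Red and green signals after loess and Aquantile are rebuilt from the ratio and the mean of both channels, so a spot's green signal enters its normalized red. In the quantile-normalized fit of the sample channel green was not used. Probes were retained where most spots had red signal well above background on each array of 1 treatment or more. lmFit and eBayes compared the groups, two-sided, with Benjamini-Hochberg adjustment over the 27284 kept probes. The brightest kept probe stood for a gene in the lists. Symbols came from RefSeq transcript accessions (GRCm38.p6), and promoter windows from RefSeq on that build. The fit was tested on simulated data. The number of arrays limits the precision. The labels do not say whether same-numbered arrays were paired, and the main fit used no block. Deviations of same-numbered arrays correlated at 0.09, which cannot show whether the cultures were paired.

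Named are all 9 members, in each list up to 4 called genes per direction and the 2 brightest not called, and the 3 nearest patterns; a few list genes are not reported here. The members and lists were chosen with earlier results of these data known. Alternatives are given in the closing section.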

Additional observations from a re-analysis of the deposited data

How the results depend on the processing

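The number of member probes called, 2, stayed between 2 and 5 when single arrays were left out. It was 1 with the processed signals, 6 with median centring, 1 with the brightest probe of each gene alone (9 member probes tested), and 0 in both fits of the sample channel alone (4 at an unadjusted p under 0.05 with quantile normalization, 2 after loess and Aquantile), with marked spots left out (6 member probes tested, 5 at an unadjusted p under 0.05) and with debris spots kept (1). All probes called numbered 1883, or 1213 to 2696 without single arrays, 807 with the processed signals, 538 of 9545 with marked spots left out, 51 with debris spots kept, and 0 and 1 in the sample channel alone (3221 and 3420 at an unadjusted p under 0.05). Called genes of the lists numbered 33, or 21 to 37 without single arrays, 12, 10, 2, 0 and 0 in the same order (42 and 32 at an unadjusted p under 0.05 in the sample channel). At an unadjusted p under 0.05 there were 2091 of all 9545 probes with marked spots left out and 2851 with debris spots kept. Marked spots were more frequent on the DAPT arrays, and no probe of Cav1, Ly6a, Cd44, Cd24a or Cdh3 was tested with them left out. The cause of the differences between settings was not tested.

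Cav1 probe A_52_P306845 lost its call with the processed signals (1.20, adjusted p = 0.054), in both sample channel fits (1.07 and 1.01) and with debris spots kept (0.81). Trp63 probe A_51_P216550 lost it with the processed signals (2.86, adjusted p = 0.171), scale normalization (0.88, adjusted p = 0.112) and debris spots kept (0.27), and its sign turned in the sample channel (-0.47 and -0.54). Median centring brought past the threshold Ly6a (1.03, against 0.02 with scale normalization), Cd44 probes A_52_P229536 (0.88) and A_51_P407053 (1.02) and Cav1 probe A_51_P107302 (1.08). Fits with the replicate number as a block called 3 member probes, 2352 probes in all and 36 list genes, the added member being Prom1 probe A_51_P414072 (1.06, adjusted p = 0.0282).

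Other signs turned as follows. With debris spots kept, Cdh1 became -0.38, Prom1 A_52_P402786 -0.51, Trp63 A_52_P17264 -0.16, Ezr -0.02, Ly6h -0.02 and Hmgb1 0. With median centring, Cd24a became 0.14, Ngfr A_51_P384968 0.04, Bex3 0.40, Cavin1 0.36, Cd81 0.28, Cdh2 0.22, Kidins220 0.13, Ly6e 0.16 and Trp53 0.25. With the processed signals, Ngfr A_51_P384968 became 0.14, Bex3 0.08, Cdh2 0.18 and Ly6h -0.08. In the sample channel after loess and Aquantile, Cd24a became 0.17, Cdh1 -0.16, Ngfr A_51_P384968 0.07, Prom1 A_52_P402786 -0.18, Bex3 0.32, Cdh16 0.08, Krt5 -0.35, Ly6e 0.17 and Trp53 0.06. Quantile-normalized, that channel gave Cd24a 0.40, Cdh1 -0.28, Ngfr A_51_P384968 0.15, Prom1 A_52_P402786 -0.41, Trp63 A_52_P17264 -0.08, Bex3 0.40, Cdh16 0.18 and Ly6e 0.48. With scale normalization, Cd44 became -0.46, -0.07 and -0.41, Cdh1 -0.20, Prom1 A_52_P402786 -0.16, Ezr -0.35, Hmgb1 -0.10, Krt5 -0.76 and Ly6h -0.06. Without single arrays, Cavin1 reached 0.06, Cd81 0.13 (lowest -0.52), Ezr -0.07, Ly6h -0.12 and -0.09, Bex3 0.31 and Hmgb1 -0.08 (highest 0.19). A slide or scan block could not be run, since all arrays share 1 slide and 1 scan.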
